A study of Homo sapiens with 4 samples.

Results

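The Kruppel-like factor (KLF) genes KLF2, KLF3, KLF4, KLF5, KLF6, KLF7, KLF9, KLF10, KLF11 and KLF13 were described in cells sorted on ICAM1, an adhesion glycoprotein of the cell surface. They were taken by symbol, 10 of 58735 gene identifiers in the table of read counts. RNA was sequenced from 2 ICAM1-high and 2 ICAM1-low libraries. Both subsets were labelled A549, a human lung adenocarcinoma line, with a wild-type genotype. Both had been grown in serum-containing medium, stained with an antibody against ICAM1 and separated by fluorescence-activated sorting, with no other treatment named. The line descends from a single tumour. No label states that libraries of the same subset were grown or sorted apart, so the p-values cover the spread among these 4 libraries only, and that spread may be technical. The comparison asks how the expression of these factors differs between cells with much and with little surface ICAM1.

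KLF proteins are transcription factors that bind GC boxes and CACCC boxes in promoters through a carboxy-terminal array of zinc fingers, which they share with the SP factors. They differ mainly in the partner that their amino-terminal part recruits. KLF3, KLF8 and KLF12 bind the corepressor CtBP. KLF2, KLF4, KLF5, KLF6 and KLF7 belong to a group that mostly activates genes by recruiting histone acetyltransferases, while KLF9, KLF10, KLF11, KLF13, KLF14 and KLF16 bind the corepressor scaffold Sin3A. Several members are themselves induced within a short time by serum, growth factors, TGF-beta, glucocorticoids or fluid shear stress, and in lung epithelium KLF5 and KLF2 are known for roles in development.

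Read totals ran to 17638647 and 17271825 for ICAM1-high, against 16665362 and 16272591 for ICAM1-low, so that 3 counts correspond to between 0.161 and 0.196 counts per 1e6 (CPM), a floor that covers counting error only. ICAM1, the sorting marker, was at 115.5 and 110.4 CPM in ICAM1-high, against 4.61 and 4.89 CPM in ICAM1-low, which fits the labels. CDKN2A, a cell cycle inhibitor gene that A549 is known to lack, had 1009 and 1214 counts in ICAM1-high and 0 in both ICAM1-low libraries, and its neighbour MTAP had 459 and 463 counts in ICAM1-high against 1 and 8 in ICAM1-low. In this respect both ICAM1-high libraries contradict the A549 label. Each difference below is between libraries carrying those labels, and every result rests on them, since the ICAM1-high subset has no other library. Lung-defining genes were at or near 0 in both subsets, with 5 counts of NKX2-1 in ICAM1-high and 4 in ICAM1-low, and 0 counts of SFTPA1 in all 4 libraries. Keratin genes of simple epithelium were abundant, with KRT18 at 1239.8 and 1278.6 CPM in ICAM1-high, against 1038.7 and 1023.7 CPM in ICAM1-low.

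The promoters of KLF2 and KLF6, whose mRNAs differed most, and of KLF13, whose mRNA differed least, are shown as RefSeq gives them (GRCh38.p14). Each runs up to the most upstream of the RefSeq start and the GENCODE gene start. Capitals mark matches on either strand. The GC box was searched as GGGCGG. The CACCC box was searched by its own 5 letters, and MEF2, a factor activated by the kinase ERK5, by its consensus. The E-box was searched as CACGTG. KLF2 lies at chr19:16324576-16324816 (plus strand), KLF6 at chr10:3785282-3785459 (minus strand) and KLF13 at chr15:31326585-31326834 (plus strand).
KLF2: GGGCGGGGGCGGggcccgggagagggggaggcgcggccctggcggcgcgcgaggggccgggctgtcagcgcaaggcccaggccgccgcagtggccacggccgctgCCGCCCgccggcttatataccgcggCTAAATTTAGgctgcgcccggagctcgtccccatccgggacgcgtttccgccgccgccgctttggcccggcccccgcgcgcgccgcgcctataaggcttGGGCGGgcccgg
KLF6: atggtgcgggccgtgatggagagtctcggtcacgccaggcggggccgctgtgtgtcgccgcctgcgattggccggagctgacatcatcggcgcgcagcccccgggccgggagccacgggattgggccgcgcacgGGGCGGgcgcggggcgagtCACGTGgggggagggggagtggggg
KLF13: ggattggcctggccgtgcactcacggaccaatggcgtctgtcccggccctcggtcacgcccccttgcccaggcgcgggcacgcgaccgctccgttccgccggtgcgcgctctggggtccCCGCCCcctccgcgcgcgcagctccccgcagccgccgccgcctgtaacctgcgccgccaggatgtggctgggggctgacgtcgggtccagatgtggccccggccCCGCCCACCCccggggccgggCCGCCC
The KLF2 stretch held 4 GC boxes and the only MEF2 consensus among the 3 sequences, which lies between them. The KLF6 stretch held 1 GC box and 1 E-box, and the KLF13 stretch held 3 GC boxes, one of which overlaps its single CACCC box. GC content was 79.3% for KLF2, 76.4% for KLF6 and 78.8% for KLF13. RefSeq promoters were matched for 8 of the 10 genes, in 13 windows, and KLF3 and KLF10 had no entry. Among 35116 RefSeq windows of 250 bases before a start, 42.6% held a GC box, 54.7% a CACCC box, 6.34% the E-box and 2.80% the MEF2 consensus. Of 2 further motifs searched, the AP-1 site was in 0 of the 13 windows, against 6.57% of all windows, and the cyclic AMP response element was in 1, upstream of KLF11, against 1.65%. The MEF2 consensus was found in 1 of the 13 windows, that of KLF2, and the E-box in 4, of KLF4, KLF6, KLF7 and KLF11. A GC box was in 8 windows and a CACCC box in 6. These matches describe letters and say nothing about binding.

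All 10 genes passed the filter on low counts, and the mRNA of 9 was lower in ICAM1-high while that of KLF11 was higher. Calls are Benjamini-Hochberg adjusted p-values under 0.05 from edgeR's quasi-likelihood test, adjusted over all 16250 genes tested, and every adjusted p of a gene below is from that test. Of all genes tested, 59.7% were called, 29.4% as lower and 30.4% as higher in ICAM1-high, so a call alone is common in this comparison. The libraries of the 2 subsets did not overlap for any of the 10 genes, against 78.3% of all genes tested. At least 2-fold lower were 4 of the 10, namely KLF2, KLF6, KLF10 and KLF7, against 4.71% of all genes called as lower by that much. The median log2 fold change of the 10 was -0.57, against 0.0118 over all genes tested. The choice of these genes was made with earlier results of the same libraries known, so the counts describe them and are not independent evidence. The levels used here are CPM scaled by edgeR's trimmed mean of M values (TMM). With scaling by library size alone, the median of all genes was 0.17 higher on the log2 scale and the share of calls that were higher was 68.3% in place of 50.8%. Of the 16250 genes tested, 6735 were then called higher and 3124 lower. With that scaling 8 of the 10 genes were called lower, KLF11 was called higher, and KLF13 (-0.01) was not called.

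Added together, the 10 mRNAs came to 735.3 and 729.2 CPM in ICAM1-high and to 1292.3 and 1285.5 CPM in ICAM1-low. In bulk RNA, fewer cells with a transcript and less of it per cell cannot be told apart. Per kilobase of exonic sequence, which allows genes to be set against each other, the order of levels in ICAM1-high was KLF5, KLF10, KLF13, KLF4, KLF6, KLF3, KLF9, KLF11, KLF7 and KLF2, with means from 34.1 down to 1.55 CPM per kb. In ICAM1-low the order was KLF10, KLF5, KLF6, KLF13, KLF4, KLF3, KLF9, KLF7, KLF2 and KLF11, with means from 73.7 down to 2.91 CPM per kb. In neither order did the libraries of any of the 9 neighbouring pairs overlap, although exonic length taken over all annotated isoforms is only an approximation. KLF6 was the fifth in ICAM1-high and the third in ICAM1-low. KLF6 made up 9.15% and 9.04% of the summed per-kb level of the 10 genes in ICAM1-high and 17.3% in each ICAM1-low library. KLF13 made up 14.8% and 15.2% in ICAM1-high against 9.30% and 9.45% in ICAM1-low.

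**Figure D1:**
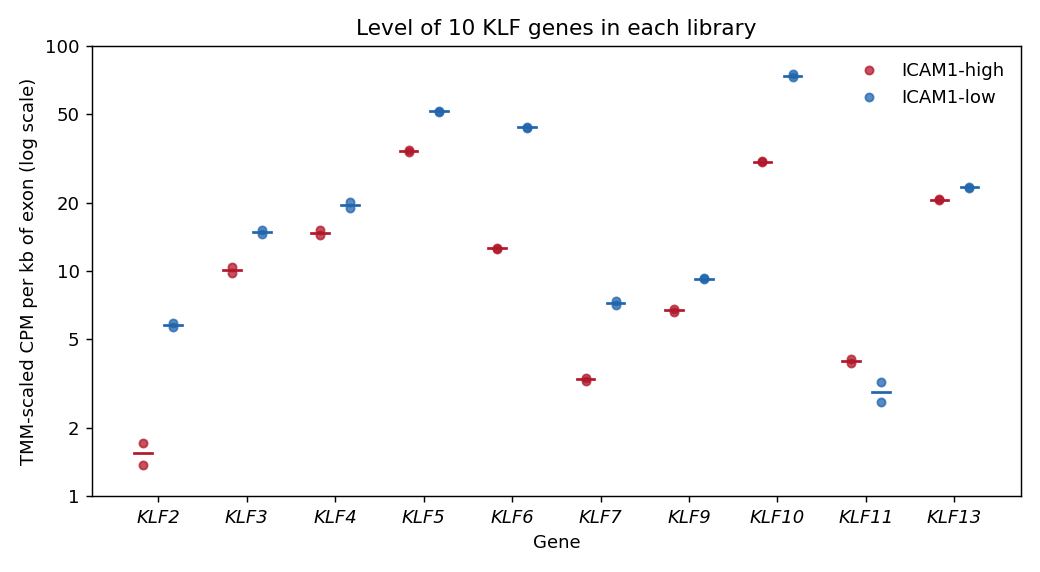
Level of each KLF gene in TMM-scaled CPM per kb of exon (log axis) in each library; points are libraries and short lines are subset means. The ICAM1-high points lie below the ICAM1-low points for 9 genes and above them for KLF11, at 4.07 and 3.89 CPM per kb in ICAM1-high against 2.61 and 3.21 in ICAM1-low.

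Among the acetyltransferase-recruiting members, all 5 were lower in ICAM1-high, with log2 fold changes between -1.89 and -0.41. KLF6 (ENSG00000067082, GRCh38 chromosome 10, 3775996 to 3785281, minus strand), a broadly expressed factor first found by its binding to a core promoter element, had 1457 and 1404 counts in ICAM1-high and 4197 and 4078 counts in ICAM1-low. This was 77.3 ± 1.22 CPM in ICAM1-high against 267.2 ± 1.80 CPM in ICAM1-low (SD, n = 2 each), a log2 fold change of -1.79 (standard error, SE, 0.05; edgeR adjusted p = 1.51e-42). Both ICAM1-high libraries lay far below both ICAM1-low libraries, and the adjusted p of KLF6 was the smallest of the 10. KLF2 (ENSG00000127528, chromosome 19, 16324817 to 16327874, plus strand), known for keeping endothelium and T cells quiescent, was the least abundant member in ICAM1-high, with 52 and 64 counts there against 178 and 182 in ICAM1-low. Its level was 3.14 ± 0.491 CPM in ICAM1-high, against 11.6 ± 0.341 CPM in ICAM1-low (SD, n = 2 each), 3.70-fold lower (log2 fold change -1.89, SE 0.18, edgeR adjusted p = 1.23e-14). The size of its fall had the widest error of the 10, and the difference from that of KLF6 was not tested.

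KLF7 (ENSG00000118263, chromosome 2, 207074137 to 207167267, minus strand), a factor best known from neurons, had 559 and 571 counts in ICAM1-high, against 1070 and 1003 in ICAM1-low. Its level fell to 30.5 ± 0.778 CPM in ICAM1-high, against 66.9 ± 2.15 CPM in ICAM1-low (log2 fold change -1.13, SE 0.07, edgeR adjusted p = 2.27e-22). KLF5 (ENSG00000102554, chromosome 13, 73054976 to 73077542, plus strand), which promotes proliferation in many epithelia, was among the most abundant members in both subsets. It had 2495 and 2412 counts in ICAM1-high, against 3103 and 3066 in ICAM1-low, or 132.6 ± 1.79 CPM in ICAM1-high against 199.2 ± 1.02 CPM in ICAM1-low (log2 fold change -0.59, SE 0.05, edgeR adjusted p = 2.03e-17). KLF4 (ENSG00000136826, chromosome 9, 107484852 to 107490482, minus strand), a reprogramming factor that also drives epithelial differentiation, had the smallest fall of this group. Its libraries were at 55.6 and 52.5 CPM in ICAM1-high, against 74.3 and 69.8 CPM in ICAM1-low (log2 fold change -0.41, SE 0.07, edgeR adjusted p = 9.1e-08). With scaling by library size alone the KLF4 difference was -0.24, with an edgeR adjusted p of 0.000884.

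KLF3 (ENSG00000109787, chromosome 4, 38664196 to 38701042, plus strand), the CtBP-binding member among the 10, had 65.7 and 61.9 CPM in ICAM1-high, against 91.8 and 95.8 CPM in ICAM1-low. It fell by 0.56 on the log2 scale (SE 0.06, edgeR adjusted p = 1.48e-12). The antisense gene KLF3-AS1 overlaps its exons and had 3 and 4 counts in ICAM1-high, against 10 and 16 in ICAM1-low. Whether reads were counted by strand is not given in the sources used here, but these counts are small beside the 1137 to 1469 counts of KLF3.

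The Sin3A-binding members did not move together, with log2 fold changes between -1.27 and 0.45. KLF10 (ENSG00000155090, chromosome 8, 102648779 to 102655902, minus strand), an early gene of the TGF-beta response, was the most abundant member per kb in ICAM1-low. It had 2270 and 2265 counts in ICAM1-high, against 4673 and 4464 in ICAM1-low, or 122.6 ± 1.09 CPM in ICAM1-high against 295.0 ± 5.53 CPM in ICAM1-low (SD, n = 2 each; log2 fold change -1.27, SE 0.05, edgeR adjusted p = 1.07e-35). KLF11 (ENSG00000172059, chromosome 2, 10042849 to 10054836, plus strand), its closest relative in sequence and also TGF-beta inducible, was the single member that rose. Its counts were 348 and 328 in ICAM1-high and 187 and 226 in ICAM1-low, or 18.7 and 17.9 CPM in ICAM1-high against 12.0 and 14.7 CPM in ICAM1-low (log2 fold change 0.45, SE 0.12, edgeR adjusted p = 0.000605). The 2 ICAM1-low libraries differed from each other more than the ICAM1-high libraries did. Without ICAM1-low replicate 1 the KLF11 difference was 0.30 and no longer called (edgeR adjusted p = 0.0761). An antisense gene that overlaps KLF11 exons had 0 counts in all 4 libraries.

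KLF9 (ENSG00000119138, chromosome 9, 70384597 to 70414624, minus strand), which is induced by glucocorticoids, was at 35.1 and 34.2 CPM in ICAM1-high, against 47.6 and 48.1 CPM in ICAM1-low (log2 fold change -0.47, SE 0.08, edgeR adjusted p = 2.2e-07). KLF13 (ENSG00000169926, chromosome 15, 31326855 to 31435665, plus strand), a regulator of the chemokine gene CCL5 in T cells, was nearly level between the subsets. It had 3608 and 3617 counts in ICAM1-high, against 3455 and 3420 in ICAM1-low, which TMM scaling turned into 195.3 ± 2.38 CPM in ICAM1-high against 222.0 ± 1.42 CPM in ICAM1-low (log2 fold change -0.18, SE 0.05, edgeR adjusted p = 0.000314). The KLF13 call depended on the scaling. With library size alone the difference was -0.01 (edgeR adjusted p = 0.84), and with offsets for transcript GC content it was -0.33.

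Ratios between members inside a library do not depend on scaling between libraries. With 2 libraries against 2, an exact two-sided permutation test cannot give a p below 0.333, so these 6 ratios of raw counts are given as values. KLF6 had 0.584 and 0.582 counts per KLF5 count in ICAM1-high and 1.35 and 1.33 in ICAM1-low, so the larger count of the pair was KLF5 in ICAM1-high and KLF6 in ICAM1-low. KLF10 had 0.629 and 0.626 counts per KLF13 count in ICAM1-high and 1.35 and 1.31 in ICAM1-low, a change of order of the same kind. The relatives KLF10 and KLF11 stood at 6.52 and 6.91 to 1 in ICAM1-high and at 25.0 and 19.8 to 1 in ICAM1-low. KLF2 had 0.0502 and 0.0663 counts per KLF4 count in ICAM1-high and 0.153 and 0.170 in ICAM1-low. The smallest shift was that of KLF9 to KLF13, at 0.182 and 0.174 in ICAM1-high and 0.216 in each ICAM1-low library. KLF7 had 0.224 and 0.237 counts per KLF5 count in ICAM1-high and 0.345 and 0.327 in ICAM1-low. The pairs were chosen with the fold changes known and have the member with the lower fold change on top, which fixes their shared direction. Of all 45 pairs of the 10 genes, the libraries of the subsets did not overlap in 42. The share over pairs of all genes was not computed. By TMM-scaled CPM, 78.3% of all single genes tested did not overlap, so the count of pairs is not a result about KLF genes.

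**Figure D2:**
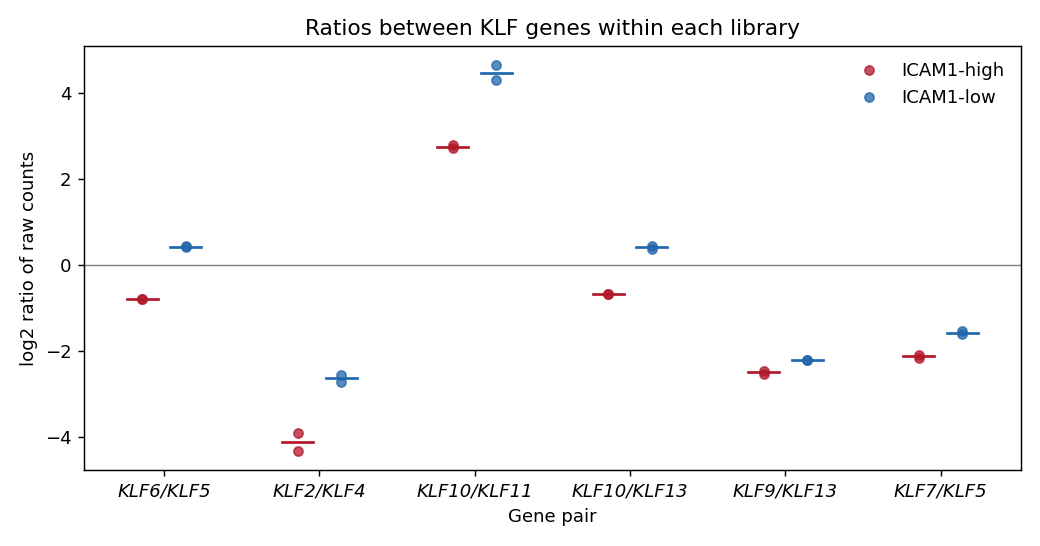
The log2 ratio of raw counts between 2 KLF genes in each library, for 6 pairs, each with the member of lower fold change on top; points are libraries and short lines are subset means. Every ICAM1-high ratio lies below the ICAM1-low ratios of its pair, with the widest gap for KLF10 to KLF11 (means 2.75 in ICAM1-high and 4.47 in ICAM1-low) and the narrowest for KLF9 to KLF13 (-2.49 in ICAM1-high and -2.21 in ICAM1-low).

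Of 7 further listed genes of the KLF family (KLF1, KLF8, KLF12, KLF14, KLF15, KLF16 and KLF17), 3 were tested, of which 2 were called higher, 0 lower, and 1 was not called. For this and each list below, the background with TMM scaling is that 29.4% of all genes tested were called lower and 30.4% higher. KLF16, a Sin3A-binding factor, had 489 and 475 counts in ICAM1-high against 313 and 329 in ICAM1-low (log2 fold change 0.33, SE 0.10, edgeR adjusted p = 0.0024). With GC offsets the KLF16 difference was 0.11 (edgeR adjusted p = 0.286), and without ICAM1-low replicate 1 it was 0.27 (edgeR adjusted p = 0.0643). KLF12, a CtBP-binding repressor, had 10.0 and 9.75 CPM in ICAM1-high, against 8.19 and 9.52 CPM in ICAM1-low and was not called (log2 fold change 0.16, SE 0.15, edgeR adjusted p = 0.355). KLF1, the erythroid factor, had 18 and 23 counts in ICAM1-high, against 0 and 1 in ICAM1-low, a ratio of 34.3 (95% exact binomial counting interval 5.82 to 1390). It passed the filter through ICAM1-high alone, so its call was largely fixed by its being tested. The untested genes were near the floor in at least 1 subset. KLF8 had 2 and 4 counts in ICAM1-high against 0 and 2 in ICAM1-low, and KLF15 had 3 and 0 in ICAM1-high against 0 and 2 in ICAM1-low. KLF17 had 11 and 6 in ICAM1-high against 1 and 1 in ICAM1-low, a ratio of 7.11 (95% exact binomial counting interval 1.69 to 63.5). KLF14 and KLF18 had 0 counts in every library.

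The SP factors compete with KLF proteins for GC boxes. Of 9 listed SP genes, 8 were tested, of which 4 were called lower, 2 higher and 2 were not called, with a median log2 fold change of -0.07. SP1, the prototype of the family, was at 138.8 and 132.9 CPM in ICAM1-high, against 153.8 and 151.6 CPM in ICAM1-low (log2 fold change -0.17, SE 0.05, edgeR adjusted p = 0.00283). The SP1 difference was 0.00 with library size alone and was not called without ICAM1-low replicate 1 (edgeR adjusted p = 0.0566). SP3 fell by 0.34 (SE 0.05), SP2 by 0.46 (SE 0.08) and SP4 by 0.60 (SE 0.12). SP5, a Wnt-responsive factor, had 26 and 28 counts in ICAM1-high against 0 and 0 in ICAM1-low. With 3 counts taken as the floor of the ICAM1-low subset, SP5 was at least 15.1-fold higher. SP5 passed the filter through ICAM1-high alone. SP8, a factor of limb and brain development, had 50 and 76 counts in ICAM1-high against 38 and 23 in ICAM1-low (log2 fold change 0.79, SE 0.28, edgeR adjusted p = 0.0134). The SP8 call was lost with DESeq2 (adjusted p = 0.121) and without ICAM1-high replicate 2 (0.44) or ICAM1-low replicate 2 (0.48). SP6 (log2 fold change 0.02, SE 0.27) and SP9 (0.31, SE 0.25) were not called, and SP7 had 2 counts in each subset.

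**Figure D3:**
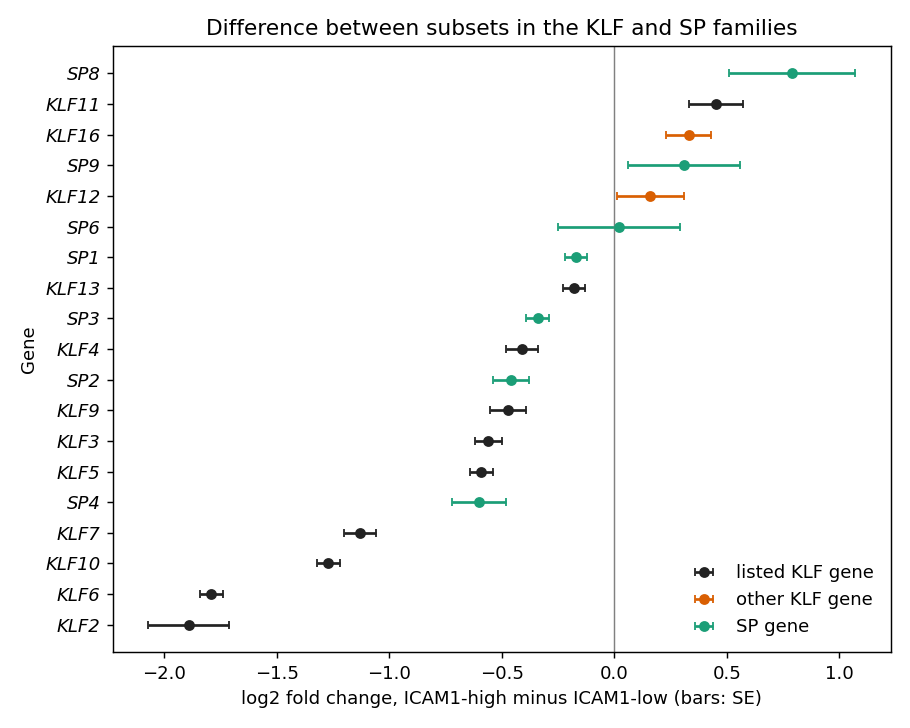
Log2 fold change (ICAM1-high minus ICAM1-low) with its SE for the tested KLF and SP genes, in order of size; KLF1 and SP5, with 1 and 0 counts in ICAM1-low, are left out. KLF2, KLF6, KLF10 and KLF7 lie at -1.13 or below, apart from the other genes, whose values run from -0.60 (SP4) to 0.79 (SP8).

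Genes that act with KLF proteins differed in both directions. Of 14 cofactor genes, 6 were called higher, 4 lower and 4 were not called (median log2 fold change 0.12). With scaling by library size alone, 10 were called higher and 3 lower. The background with that scaling was 6735 genes called higher and 3124 lower of 16250 tested. The acetyltransferase gene KAT2A was at 121.0 ± 6.54 CPM in ICAM1-high, against 60.2 ± 0.225 CPM in ICAM1-low (log2 fold change 1.01, SE 0.06), and the demethylase gene KDM1A rose by 0.87 (SE 0.06). CTBP2, a CtBP corepressor bound by KLF3, fell by 0.68 (SE 0.05), and EP300, an acetyltransferase recruited by activating KLF proteins, fell by 0.38 (SE 0.05). SIN3A itself was not called, at 124.0 and 124.5 CPM in ICAM1-high, against 127.3 and 123.8 CPM in ICAM1-low (log2 fold change -0.02, SE 0.05). It is named after its values were seen. Of 8 listed genes for KLF protein stability, 7 were tested, of which 4 were called lower, 0 higher and 3 were not called (median -0.22). With library size alone, 3 were called lower and 1 higher, against the same background. USP3, a deubiquitinase, fell by 0.68 (SE 0.06), and the ubiquitin ligase genes SMURF1, SMURF2 and WWP1 fell by 0.42, 0.41 and 0.22. WWP1 was not called with library size alone (-0.05) or GC offsets (-0.07).

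The kinase cascade through MEK5 and ERK5 activates MEF2 factors, which are known to induce KLF2 and KLF4 in endothelium. Of its 8 listed genes, 6 were tested, of which 4 were called lower, 1 higher and 1 was not called (median -0.39). With library size alone, 4 were called lower and 2 higher, against 3124 lower and 6735 higher of all 16250 genes tested. MEF2D was at 107.1 ± 2.76 CPM in ICAM1-high, against 196.7 ± 3.44 CPM in ICAM1-low (log2 fold change -0.88, SE 0.05). MAP3K2 fell by 0.84 (SE 0.06), MAP2K5, which encodes MEK5, by 0.43 (SE 0.10), and MEF2A by 0.36 (SE 0.07). MEF2C had 0 counts in all 4 libraries. The MEF2 consensus in the KLF2 promoter printed above is a match of letters, and no factor's binding was measured here.

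The TGF-beta list, the setting in which KLF10 and KLF11 were first described, held 12 genes, all of them tested. Of these, 9 were called lower, 2 higher and 1 was not called (median -0.43). Among all genes tested, 29.4% were called lower and 30.4% higher with TMM scaling, which is the background for each list of this paragraph. The corepressor gene TGIF1 fell by 0.90 (SE 0.05) and the signal transducer gene SMAD3 by 0.47 (SE 0.04), while the ligand gene TGFB1 rose by 0.78 (SE 0.05). Of 10 listed glucocorticoid receptor genes and targets, the setting of KLF9, 9 were tested, of which 6 were called lower, 2 higher and 1 was not called (median -0.72). ERRFI1, a feedback inhibitor of EGFR, was at 211.1 ± 7.08 CPM in ICAM1-high, against 920.5 ± 2.97 CPM in ICAM1-low (log2 fold change -2.12, SE 0.04). TSC22D3, which encodes the glucocorticoid-induced leucine zipper protein, fell by 2.46 (SE 0.09), the clock gene PER1 by 1.68 (SE 0.07) and the phosphatase gene DUSP1 by 1.52 (SE 0.04). The kinase gene SGK1 rose by 0.70 (SE 0.05), and FKBP5, which encodes a chaperone of the receptor, was not called (-0.03, SE 0.07), both named after their values were seen. Of 15 listed immediate early factors, 13 were tested, of which 8 were called lower, 4 higher and 1 was not called (median -0.34). With library size alone, 6 were called lower and 5 higher, against 3124 lower and 6735 higher of all 16250 genes tested. FOSL2 fell by 1.42 (SE 0.04), FOSL1 by 1.28 (SE 0.07), IER3 by 1.25 (SE 0.05) and JUN by 1.07 (SE 0.05). Among those that rose were FOSB, by 1.89 (SE 0.16), and FOS, by 0.72 (SE 0.05), named after their values were seen.

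Genes known as targets of KLF proteins in other settings were counted beside the factors. Some are counted on more than 1 list, so the counts by list are not separate results. CDKN1A is listed for KLF2 and KLF4 and for KLF6. TGFB1, TGFBR1 and SMAD7 are also on the TGF-beta list, and ATF3 and MYC are also immediate early factors. Over all genes tested, 30.4% were called higher and 29.4% lower. Of 7 listed for KLF2 and KLF4, 5 were tested and all 5 were called higher in ICAM1-high (median 0.56). One of them, ALPI, passed the filter through ICAM1-high alone, so its call was largely fixed by its being tested, and 4 reached the filter's level in both subsets. S1PR1, a KLF2 target in T cells and endothelium, was at 4.13 and 3.92 CPM in ICAM1-high, against 0.895 and 0.717 CPM in ICAM1-low (log2 fold change 2.31, SE 0.32). The cell cycle inhibitor gene CDKN1A, a KLF4 and KLF6 target, rose by 0.40 (SE 0.05), and TXNIP, which encodes a thioredoxin inhibitor, by 0.56 (SE 0.07). ALPI, intestinal alkaline phosphatase, had 282 counts in ICAM1-high, against 3 in ICAM1-low, a ratio of 78.7 (95% exact binomial counting interval 26.7 to 384), and shares near-identical sequence with other alkaline phosphatase genes. Of 6 listed for KLF5, 4 were called higher, 1 lower and 1 was not called (median 0.25), with 1 of the 4 passing the filter through ICAM1-high alone, namely FGFBP1, a carrier of fibroblast growth factors. CCND1, which encodes cyclin D1, rose by 0.27 (SE 0.04), PDGFA by 0.39 (SE 0.09) and MYC by 0.23 (SE 0.05), while the receptor gene EGFR fell by 1.16 (SE 0.04). Of 6 listed for KLF6, 3 were called higher, 2 lower and 1 was not called (median 0.22). The endoglin gene ENG rose by 2.29 (SE 0.16), while ATF3 fell by 1.10 (SE 0.08) and the urokinase gene PLAU by 1.25 (SE 0.05). Of 5 listed for KLF10, KLF11 and KLF13, 4 were called higher and 1 lower (median 0.97), with MAOB passing the filter through ICAM1-high alone. MAOB, a monoamine oxidase gene, had 1055 counts in ICAM1-high, against 3 in ICAM1-low, a ratio of 294 (95% exact binomial counting interval 100 to 1430). MAOA, a KLF11 target, rose by 0.55 (SE 0.14), while SMAD7, which KLF10 is known to repress, fell by 0.70 (SE 0.10).

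The KLF differences came with differences in marker genes of further cell types. Of 10 fibroblast markers, 6 were tested, of which 4 were called higher and 0 lower, 3 of the 4 (LUM, FAP and PDGFRB) having passed the filter through ICAM1-high alone. The list summed to 32.6 and 36.6 CPM in ICAM1-high against 5.24 and 6.52 CPM in ICAM1-low. Most of that sum was COL1A1, at 27.1 and 30.0 CPM in ICAM1-high against 3.84 and 4.30 CPM in ICAM1-low. COL1A2 and COL3A1 had 0 counts in ICAM1-high, DCN had 1, and POSTN had 0 in all 4 libraries. Of 10 endothelial markers, 4 were tested, of which 3 were called higher and 1 lower, 2 of the 3 (CDH5 and ERG) having passed the filter through ICAM1-high alone. The other higher one, PECAM1, reached the filter's level in both subsets. It was at 4.08 and 3.10 CPM in ICAM1-high against 0.895 and 0.782 CPM in ICAM1-low (log2 fold change 2.09, SE 0.33). The list summed to 11.3 and 11.9 CPM in ICAM1-high against 5.63 and 5.87 CPM in ICAM1-low. Most of the ICAM1-low sum was ESAM, the lower one, at 2.84 and 3.54 CPM in ICAM1-high against 4.67 and 4.89 CPM in ICAM1-low. ERG had 37 and 52 counts in ICAM1-high and 0 in both ICAM1-low libraries. VWF, KDR, TEK and TIE1 had between 0 and 5 counts in each ICAM1-high library and 0 in both ICAM1-low libraries, near the floor in both subsets. Of 12 leukocyte markers, 3 were tested, of which 2 were called higher and 1 lower, at 66.5 and 62.8 CPM in ICAM1-high against 48.7 and 49.0 CPM in ICAM1-low. The leukocyte-defining genes PTPRC, CD3E, CD3D, CD2 and MS4A1 had 0 counts in all 4 libraries. Of 12 lung epithelial markers, 5 were tested, of which 4 were called higher and 1 lower, at 4455.9 and 4602.9 CPM in ICAM1-high against 2508.1 and 2435.1 CPM in ICAM1-low. Most of that sum was KRT18 and KRT8, keratin genes of simple epithelium. KRT8 was at 3013.5 and 3134.1 CPM in ICAM1-high against 1312.3 and 1267.4 CPM in ICAM1-low. The markers not tested were under 1 CPM in both subsets, and the lower one was EPCAM (log2 fold change -0.63, SE 0.25). The part of these markers, and of cells that go against the A549 label, in the KLF differences was not tested. When genes under 1 CPM in ICAM1-low were left out before scaling, the same count of KLF calls was made, with 9 lower and 1 higher. That setting changes the scaling and leaves the counts of the KLF genes as they are, so it cannot show which cells were present.

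**Figure D4:**
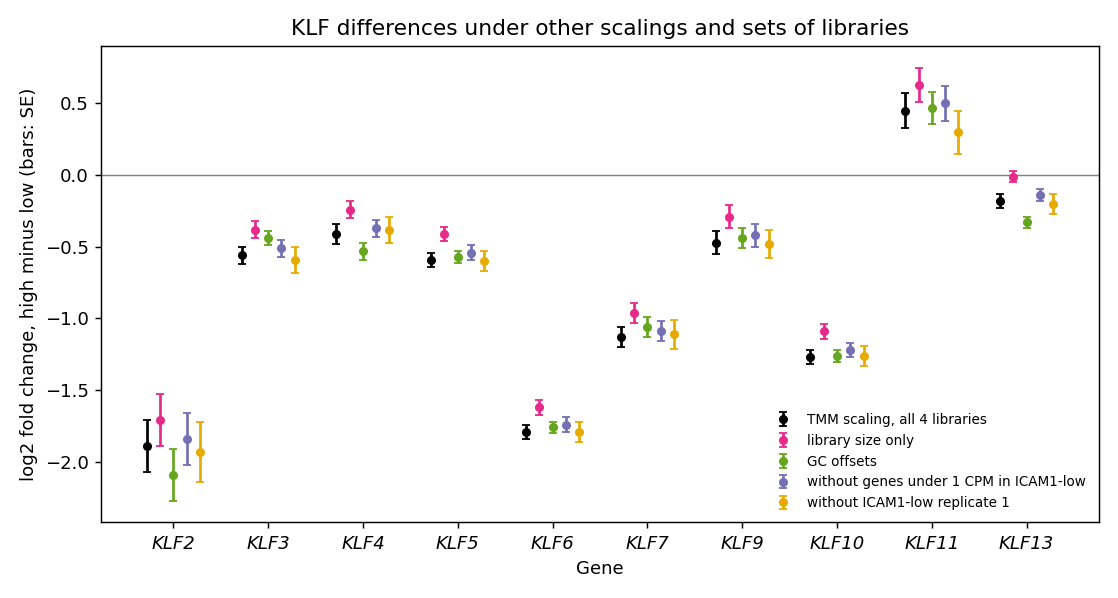
Log2 fold change (ICAM1-high minus ICAM1-low) of each KLF gene with its SE under TMM scaling with all libraries and under 4 other settings, one colour each. KLF2, KLF6, KLF7 and KLF10 stay at -0.96 or below, while KLF13 lies at -0.01 with library size alone and KLF11 at 0.30 without ICAM1-low replicate 1.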

How the data were processed

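RNA of 2 ICAM1-high and 2 ICAM1-low libraries was prepared with Trizol and a SMARTer mRNA kit, per the labels' protocols. The deposited values are whole-number read counts for each gene in 1 table, as the authors made them, with columns matched to samples by description. FastQC 0.10.1 and the build GRCh38 are named in the submitters' processing notes. Which aligner, counter and strand setting were used, and how shared reads were treated, is not given in the sources used here. All 58735 identifiers were in GENCODE release 29, and 58207 had a symbol.

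Counts were tested with edgeR 4.0.16 in R 4.3.3 (quasi-likelihood, robust, TMM, default filter with a minimum count of 10 and total of 15), after a check on simulated counts. The common dispersion was 0.00133. SE is the fold change over the root of the F statistic. Replicates differed by more than sampling noise (chi-square per degree of freedom 2.88 in ICAM1-high and 1.82 in ICAM1-low). Alternatives were DESeq2 1.42.0 and its size factors, library size alone, limma-voom (limma 3.58.1), 2 other filters, omission of gene classes, GC offsets, the replicate number as a block, stricter thresholds and omission of each library. The members and lists were chosen with earlier results of these data known. The genes named are all members, the rest of the KLF and SP families, label checks, the up to 4 genes of every other list that had the lowest adjusted p, and the 3 genes nearest in pattern to the members with the largest rise and fall. Marker genes, SIN3A, MEF2C, FGFBP1, FOS, FOSB, SGK1, FKBP5 and relatives of the members lie outside that rule, and 2 genes that it names are not reported here. Promoters are from RefSeq.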

Additional observations from a re-analysis of the deposited data

How the results depend on the processing

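The 10 KLF genes kept their direction under all 15 alternatives each, and 142 of 150 such values stayed on the same side of the threshold. The range was -2.09 to -1.71 for KLF2, -1.81 to -1.62 for KLF6, -1.30 to -1.09 for KLF10 and -1.17 to -0.96 for KLF7, called in every one of the 15. Against a 1.5-fold change, edgeR called 2969 genes in place of 9706, and 4 KLF genes, those 4, in place of 10. The values not called there were -0.56 for KLF3, -0.41 for KLF4, -0.59 for KLF5, -0.47 for KLF9, 0.45 for KLF11 and -0.18 for KLF13. KLF13 was at -0.01 with library size alone, and KLF11 ranged from 0.30 to 0.60 when single libraries were left out. By list, the 1.5-fold test called 1 further KLF gene, 1 SP gene, 2 cofactor genes, 0 stability genes (1 at an unadjusted p under 0.05, against 4 called by DESeq2 without the fold threshold), 2 genes of the ERK5 list, 3 of the TGF-beta list and 7 immediate early factors. It called 6 genes of the glucocorticoid list. Among targets, it called 2 of KLF2 and KLF4, 2 of KLF5, 4 of KLF6, and 3 of KLF10, KLF11 and KLF13. The further KLF gene was KLF1 and the SP gene was SP5, and the targets called included ALPI, FGFBP1 and MAOB. These passed the filter through ICAM1-high alone, so their calls were largely fixed by their being tested. Further KLF genes called numbered 1 in place of 2 with a mean of at least 1 CPM, without genes under 1 CPM in ICAM1-low, or with GC offsets, and 1 to 2 with single libraries left out. Without genes under 1 CPM in ICAM1-low, 3 targets of KLF2 and KLF4 were called in place of 5, since fewer were tested. Reversed values were those of SP1 (0.00 with library size alone), SP6 (-0.15 with GC offsets, -0.32 without ICAM1-high replicate 2 and -0.21 without ICAM1-low replicate 2, in a leave-one-out range of -0.32 to 0.29) and SP9 (-0.06 without ICAM1-low replicate 2, in a leave-one-out range of -0.06 to 0.80). Where not stated, the cause was not tested.

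Same-numbered libraries of the 2 subsets deviated together with a correlation of 0.0375, and the labels do not say that a number marks a shared culture. With the replicate number as a block, 9812 genes and 10 KLF genes were called, and no KLF call changed. A fit that leaves 1 library in a subset takes its spread from the other subset. Depth limits KLF1, KLF8, KLF14, KLF15, KLF17, SP5 and SP7, which were near the floor of 3 counts in at least 1 subset.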

Other observations

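The genes whose pattern over the 4 libraries lay nearest to that of KLF11, by Euclidean distance of centred log2 CPM among protein-coding genes of at least 5 CPM, were PRIM2 (a DNA primase subunit, distance 0.0346), MVK (mevalonate kinase, 0.0454) and GPANK1 (0.0456). PRIM2 was at 17.7 and 16.5 CPM in ICAM1-high and at 10.9 and 13.6 CPM in ICAM1-low. Without ICAM1-low replicate 1 the log2 fold change was 0.32 for PRIM2, 0.34 for MVK and 0.32 for GPANK1, against 0.30 for KLF11. That likeness follows from their choice by nearness to KLF11 over the same libraries. Nearest to KLF2 were the glutamine transporter gene SLC1A5 (distance 0.183), TMEM156 (0.213) and MAFK, a small partner of NRF2 (0.217). SLC1A5 was at 214.5 and 225.7 CPM in ICAM1-high and at 755.0 and 771.6 CPM in ICAM1-low, and MAFK at 142.6 and 154.6 CPM in ICAM1-high against 480.8 and 484.6 CPM in ICAM1-low. With 4 libraries, such likeness describes levels and nothing more.

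Pseudogenes of KLF2 had few counts. KLF2P1 had 9 and 12 counts in ICAM1-high and 1 and 2 in ICAM1-low, and KLF2P4 had 8 and 9 in ICAM1-high against 1 and 0 in ICAM1-low, while KLF2 itself was lower in ICAM1-high. KLF2P2 had 8 and 0 in ICAM1-high against 1 and 3 in ICAM1-low. None of these reached the filter on low counts, and how reads shared with KLF2 were counted is not given in the sources used here. The intronic transcript KLF7-IT1, within KLF7 and on its strand, had 5 and 3 counts in ICAM1-high against 15 and 13 in ICAM1-low (log2 fold change -2.03, SE 0.61, edgeR adjusted p = 0.00309), a call that was lost with DESeq2 (adjusted p = 0.0548) and without ICAM1-high replicate 2 or ICAM1-low replicate 1. KLF3-AS1 was likewise called lower (-2.11, SE 0.64, edgeR adjusted p = 0.00349) and lost its call with DESeq2 (adjusted p = 0.0583) and without ICAM1-high replicate 1 or ICAM1-low replicate 2.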
